A study of Homo sapiens with 8 samples.

Results

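The genes described are 10 death effectors, XAF1, TNFSF10, CASP1, CASP4, CASP8, CASP10, GSDMD, RIPK3, MLKL and ZBP1, taken by gene name from the 60605 genes listed for each library. All 10 were found in the tables of all 8 libraries, as were 19935 protein-coding genes in all. RNA was sequenced from HCT116, a human colorectal carcinoma cell line, and from UF1hypo, a heterozygous UHRF1 knockout clone of it in which exon 4 of 1 UHRF1 allele had been replaced by a cassette that Cre then removed. UF1hypo is a single clone, so the effect of the allele and other properties of the clone cannot be told apart. Both lines were infected with a lentivirus for the control hairpin shScr or the hairpin shUHRF1 against UHRF1 and selected with puromycin as stable pools, which gave the groups HCT116 shScr, HCT116 shUHRF1, UF1hypo shScr and UF1hypo shUHRF1 with 2 libraries each. Pools were harvested at 1 of a pair of time points, and the sources used here do not say which applies to these libraries. Nothing says that the libraries of a group came from separate cultures, so the p-values measure the spread between these libraries, which may be technical. UHRF1 is the protein that reads hemimethylated DNA and recruits the maintenance methyltransferase DNMT1 after replication.

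The 10 genes act in 3 forms of regulated cell death. TRAIL, the product of TNFSF10, binds death receptors that recruit FADD and the initiator caspases CASP8 and CASP10, and XAF1 antagonises the caspase inhibitor XIAP. In necroptosis RIPK3 phosphorylates MLKL, which then breaks the plasma membrane, and ZBP1, a sensor of Z-form nucleic acids, can engage RIPK3. In pyroptosis the inflammatory caspases CASP1 and CASP4 cut GSDMD, whose amino-terminal part forms membrane pores. Several of the 10 genes are known to be induced by interferons, and RIPK3 is known to be silenced in many cancer cell lines. Transcript levels say nothing of cleavage, phosphorylation or cell death, none of which was measured here.

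Values are length-normalized transcript abundances (TPM), which can be compared between genes. Depth, recovered from coverage and FPKM, was 5.42 to 7.84 gigabases of aligned sequence per library, but read counts per gene are unknown, so a TPM of 0 is given as listed at 0. In a bulk sample, fewer cells that express a gene and less RNA per cell cannot be told apart. UHRF1 had a TPM of 87.5 and 98.4 in HCT116 and 47.3 and 50.6 in UF1hypo with shScr, and of 31.7 and 32.7 in HCT116 and 34.1 and 21.1 in UF1hypo with shUHRF1. Its log2 fold change with the hairpin was −1.50 ± 0.22 (SE) in HCT116 (limma, adjusted p = 0.0562) and −0.84 ± 0.22 in UF1hypo (adjusted p = 0.0405). Of 9 colon epithelium markers, 6 exceeded a TPM of 1 in every group, whereas the differentiated markers VIL1, CDH17 and LGALS4 did not. The summed TPM of 15 leukocyte markers was 14.6 to 16.5 with shScr and 10.3 to 10.6 with shUHRF1 in HCT116, but 44.7 to 45.7 with shScr and 87.3 to 118.5 with shUHRF1 in UF1hypo. Most of it was CD68. In UF1hypo 10 of the 15 markers were higher in both shUHRF1 libraries than in both with shScr and 1, CD79A, was lower. Those above a TPM of 1 in either library numbered 1 in each HCT116 group, 3 in UF1hypo shScr and 5 in UF1hypo shUHRF1. The T cell marker CD3D was listed at 0 and 0.287 TPM in UF1hypo shScr against 5.05 and 2.99 in UF1hypo shUHRF1, and the myeloid marker TYROBP at 0.272 and 0 against 0.576 and 2.53. The pan-leukocyte gene PTPRC was listed at 0 in 6 libraries and at 0.0561 and 0.0728 in UF1hypo shUHRF1, and CD2 at 0 in both libraries of that group.

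The upstream sequences of the 3 members with a called change that had an entry among RefSeq promoters (GRCh38.p14) are shown because these genes were called higher in UF1hypo, with the hairpin or against HCT116. Each is the longest stretch before a RefSeq start that overlaps no annotated exon, 5′ to 3′ on the gene's strand. CpG dinucleotides, the sites of maintenance methylation, are in capitals. The CASP4 stretch lies before a RefSeq start but inside the gene as listed for the libraries (chr11:104942866-104969366, minus strand), downstream of its listed start.
XAF1 (chr17:6755197-6755446, plus strand): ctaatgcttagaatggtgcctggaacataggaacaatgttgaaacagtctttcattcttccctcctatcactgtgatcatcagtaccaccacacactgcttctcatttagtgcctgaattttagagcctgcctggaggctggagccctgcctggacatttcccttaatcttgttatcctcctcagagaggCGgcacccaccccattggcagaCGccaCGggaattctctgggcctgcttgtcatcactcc
TNFSF10 (chr3:172523476-172523680, minus strand): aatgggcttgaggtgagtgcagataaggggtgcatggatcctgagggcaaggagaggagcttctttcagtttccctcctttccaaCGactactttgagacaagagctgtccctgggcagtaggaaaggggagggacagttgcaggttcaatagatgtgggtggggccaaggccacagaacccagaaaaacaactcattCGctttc
CASP4 (chr11:104968729-104968824, minus strand): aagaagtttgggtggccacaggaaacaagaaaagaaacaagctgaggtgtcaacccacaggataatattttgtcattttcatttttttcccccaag
CpG pairs numbered 3 in the XAF1 stretch, 2 in the TNFSF10 stretch and 0 in the CASP4 stretch. In windows of 300 bases around the start, 5 members had an entry (XAF1, TNFSF10, CASP4, CASP8 and MLKL, with 8 windows in all), and these windows held 3 to 9 CpG pairs against a median of 14 over all 35116 windows of the table. Between 18.2% and 41.6% of all windows held fewer. The interferon-stimulated response element was searched as TTTC, any 2 bases and TTTC again, or GAAA, any 2 bases and GAAA on the other strand, and the gamma-activated site as TTCNNNGAA, which reads alike on both strands. Matches of both forms were counted separately and could overlap. The first form was in 3.6% of all windows and, among members, in those of TNFSF10 and 1 of the 3 of CASP8. The TNFSF10 match (chr3:172523600-172523625 with its flanks, minus strand, motif in capitals), which begins 187 bases before the start, is shown because TNFSF10 rose with the hairpin.
TNFSF10 match: ggagcttcTTTCAGTTTCcctccttt
The second form was in 7.7% of all windows and, among members, in 1 window of CASP8. A match is a description of the letters and not a measured binding site, and DNA methylation was not analysed here.

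In HCT116 without the hairpin against UHRF1, the 10 genes fell into expressed members and members listed at 0. In HCT116 shScr, GSDMD had the highest mean TPM at 103.6 ± 0.32 (SD, n = 2 libraries, as for every group), followed by CASP8 at 25.7 ± 2.29, MLKL at 12.7 ± 1.2, CASP4 at 8.27 ± 0.79 and CASP10 at 3.32 ± 0.37. The ranges of these neighbours did not overlap. The other 5 members, XAF1, TNFSF10, CASP1, RIPK3 and ZBP1, were listed at 0 in both HCT116 shScr libraries and cannot be ordered. Only CASP1 and RIPK3 were listed at 0 in both libraries of UF1hypo shScr, where XAF1 stood at 7.82 ± 0.64. In UF1hypo shUHRF1 the order began with XAF1 at 189.8 ± 4.77 and GSDMD at 178.3 ± 62.8, whose ranges overlapped. CASP4 and CASP8 overlapped as the next pair, then MLKL stood apart, and ZBP1, CASP10, TNFSF10 and RIPK3 each overlapped their neighbour between mean TPM of 3.44 and 2.17. CASP1 was lowest at 0.28 ± 0.34.

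The knockdown was compared within each line to ask whether UHRF1 depletion alters these transcripts. In HCT116 cells none of the 10 members was called. Testing required a TPM above 1 in 1 or more libraries of the comparison. A call required an adjusted p (Benjamini-Hochberg, over all tested genes) below 0.05 together with a log2 fold change beyond 1 in either direction. Fold changes are differences of mean log2(TPM + 1) and understate changes of low genes. By this rule UHRF1, the target of the hairpin, was itself not called in either line. Its log2 fold change was −1.50 in HCT116 (limma, adjusted p = 0.0562) and −0.84 in UF1hypo. A gene that is not called may therefore still have changed. In HCT116, 5 members passed the filter and 0 of them were called or had an unadjusted p under 0.05 in limma, where 0.0709% of all 12701 genes tested were called. The median log2 fold change of the 10 members was 0.00, that of all genes tested −0.034.

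In UF1hypo cells 4 members rose with the hairpin. They were XAF1, ZBP1, RIPK3 and TNFSF10. In this comparison 9 members passed the filter and 4 were called, all higher, where 8.53% of 13617 genes tested were called and 7.4% were called higher. The median log2 fold change of the 10 members was 0.77 against 0.039 over all genes tested. For 9 of the 10 members the pair of UF1hypo shUHRF1 libraries exceeded the pair with shScr, and CASP10 was the exception. Of the 9 members tested this held for 8, against 30.6% of all 13617 genes tested. RIPK3, ZBP1 and TNFSF10 passed the filter only through UF1hypo shUHRF1, the group in which they were high, so their passing already required a difference. The same held for 443 of the 1007 genes called higher. The fit takes 1 spread per gene from all 4 groups, to which a group listed at 0 in both libraries adds none. Such groups were both HCT116 groups for XAF1, ZBP1 and RIPK3, HCT116 shScr for TNFSF10 and UF1hypo shScr for RIPK3. SE and p-values of these members can therefore understate the spread where they are expressed. The leukocyte marker sum and 10 of its 15 markers, CD68, CD3D, TYROBP and PTPRC among them, were higher in the same libraries as these members. A higher sum was not particular to leukocyte markers. The colon epithelium sum was 9856.9 to 12705.4 TPM in UF1hypo shUHRF1 against at most 9085.9 in UF1hypo shScr, although EPCAM was lower. The sum of 7 fibroblast markers, mostly COL1A1, was 38.3 to 66.2 against at most 28.9. That of 4 endothelium markers was 0.357 to 0.626 against at most 0.227. The part of these markers in the result was not tested.

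**Figure D1:**
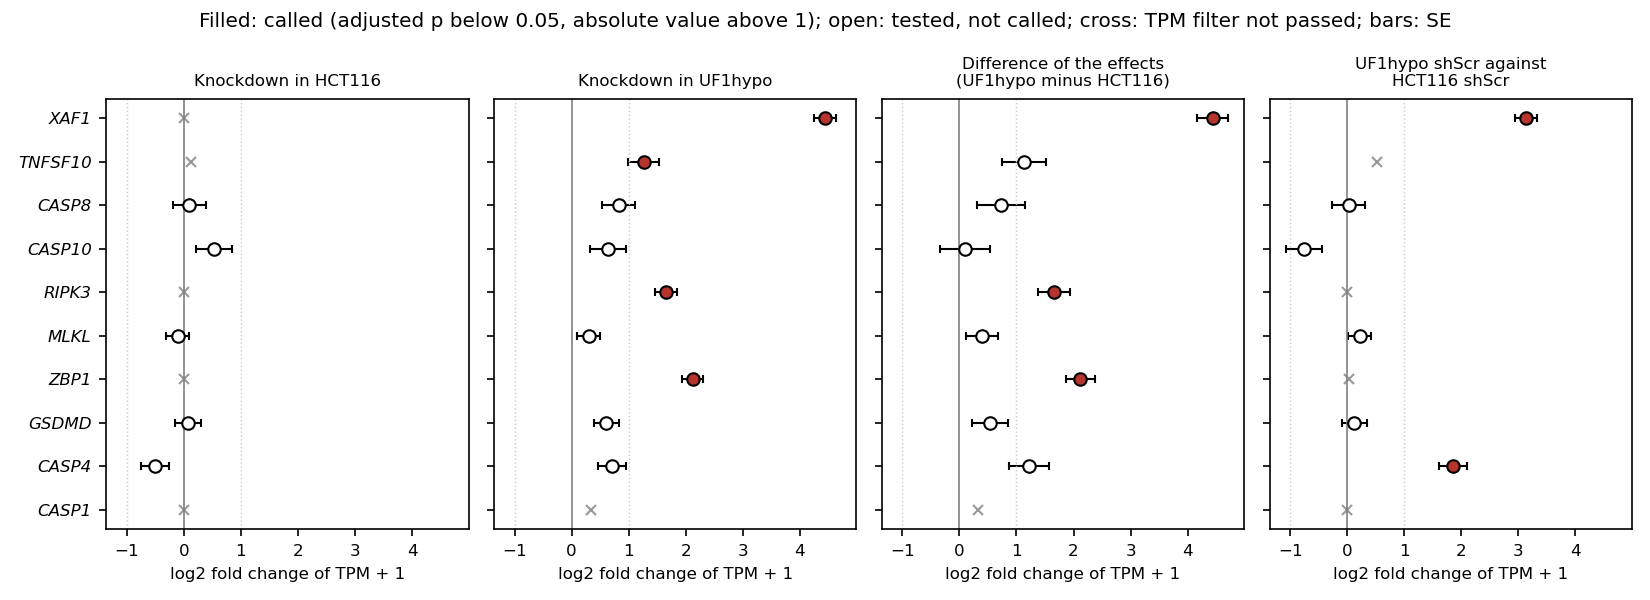
Log2 fold changes of TPM + 1 with standard errors for the 10 members in the 4 comparisons, one per panel. Filled points are called, open points tested and not called, and crosses did not pass the TPM filter; the called members are XAF1, TNFSF10, RIPK3 and ZBP1 in UF1hypo, XAF1, RIPK3 and ZBP1 for the difference, and XAF1 and CASP4 between the lines.

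XAF1 (ENSG00000132530.17, chr17:6755447-6775647, plus strand) showed the largest change of the 10. It was listed at 0 in all 4 HCT116 libraries, with or without the UHRF1 hairpin. In UF1hypo its TPM was 8.27 and 7.37 with shScr and 193.1 and 186.4 with shUHRF1. The groups did not overlap, and the mean TPM rose 24.3-fold with the hairpin in UF1hypo. Its log2 fold change was 4.44 ± 0.19 (limma, adjusted p = 5.33e-06), which ranked 33 from the top of 13617 genes. It kept its call under each of 15 alternatives, with log2 fold changes between 4.19 and 4.59. PRAL, a non-coding RNA gene on the opposite strand, overlaps XAF1 over 2817 bases and had a TPM of at most 0.0516 in 6 libraries and of 16.9 and 36.8 in UF1hypo shUHRF1. Whether the libraries kept strand is not given in the sources used here, so reads of the overlap cannot be told apart between the genes.

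TNFSF10 (ENSG00000121858.11, chr3:172505508-172523475, minus strand), which encodes the ligand TRAIL, was low in every library. It was listed at 0 in both HCT116 shScr libraries and at 0 and 0.196 in HCT116 shUHRF1. In UF1hypo its TPM was 0.736 and 0.196 with shScr and 1.82 and 3.23 with shUHRF1. The UF1hypo groups did not overlap, and the ratio of their means was 5.41. The log2 fold change was 1.26 ± 0.27 (adjusted p = 0.0187), the smallest of the called members. It was 0.99 without UF1hypo shScr replicate 2 (adjusted p = 0.132) and 0.97 without UF1hypo shUHRF1 replicate 2 (adjusted p = 0.0208), and neither value met the criteria for a call. In all 7 of 15 alternatives ended the call, the other 5 being FPKM in place of TPM (0.78), a pseudocount of 0.1 (adjusted p = 0.0752), the 4 UF1hypo libraries alone (adjusted p = 0.119), quantile normalization (0.86, adjusted p = 0.0972) and library weights (adjusted p = 0.168).

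The necroptosis members differed in their starting level. RIPK3 (ENSG00000129465.16, chr14:24336025-24340022, minus strand), the kinase that activates MLKL, was listed at 0 in 6 libraries and had a TPM of 2.48 and 1.85 in UF1hypo shUHRF1. ZBP1 (chr20:57603846-57620576, minus strand) was listed at 0 in all HCT116 libraries, at 0 and 0.0393 in UF1hypo shScr, and at 3.64 and 3.24 in UF1hypo shUHRF1. For both genes the UF1hypo shUHRF1 libraries stood above all others, from a background at or near 0, so no fold is given. On the log2(TPM + 1) scale the differences were 2.12 ± 0.18 for ZBP1 (adjusted p = 0.000212) and 1.66 ± 0.19 for RIPK3 (adjusted p = 0.00104), and both depend on the added 1. They ranged from 1.29 to 4.90 for ZBP1, which kept its call under each of 15 alternatives, and from 0.94 to 4.49 for RIPK3, which lost its call with FPKM in place of TPM. RP11-934B9.3, which overlaps RIPK3 over 1358 bases on the same strand, was listed at 0 in all libraries but UF1hypo shUHRF1 replicate 1, where its TPM was 0.358.

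MLKL (chr16:74671855-74700960, minus strand), the executor of necroptosis, was expressed in every library. Its TPM was 13.5 and 11.8 in HCT116 and 16.3 and 13.6 in UF1hypo with shScr, and 12.0 and 11.4 in HCT116 and 16.7 and 20.6 in UF1hypo with shUHRF1. The UF1hypo groups did not overlap but lay close, and the log2 fold change of 0.30 ± 0.20 was not called (adjusted p = 0.377). In HCT116 it was −0.11 ± 0.20 (adjusted p = 1).

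The initiator caspases are neighbours on chromosome 2, where CASP10 (chr2:201182898-201229406) lies 6.2 kb after CFLAR and CASP8 (chr2:201233443-201287711) 4.0 kb after CASP10, all on the plus strand. CASP8 had a TPM of 24.1 and 27.3 in HCT116 and 31.9 and 21.5 in UF1hypo with shScr, and of 25.9 and 29.2 in HCT116 and 35.1 and 63.4 in UF1hypo with shUHRF1. The last pair lay above UF1hypo shScr but differed widely between its libraries. Its log2 fold change of 0.82 ± 0.29 in UF1hypo was not called (adjusted p = 0.106) but was 1.24 without UF1hypo shUHRF1 replicate 1 (adjusted p = 0.0184). CASP10 had a TPM of 3.05 and 3.58 in HCT116 and 1.90 and 1.24 in UF1hypo with shScr, and of 5.62 and 4.86 in HCT116 and 1.89 and 4.42 in UF1hypo with shUHRF1. In HCT116 both hairpin libraries were higher, with a log2 fold change of 0.53 ± 0.31 that was not called (adjusted p = 0.912). In UF1hypo the groups overlapped, and 0.64 ± 0.31 was not called (adjusted p = 0.226) but was 1.09 without UF1hypo shUHRF1 replicate 1 (adjusted p = 0.022).

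Among the pyroptosis members, GSDMD (chr8:143553207-143563062, plus strand), the pore-forming effector, had a TPM of 103.4 and 103.8 in HCT116 and 109.8 and 116.5 in UF1hypo with shScr, and of 105.4 and 112.9 in HCT116 and 222.7 and 133.9 in UF1hypo with shUHRF1. The last group was highest, but its libraries differed more than the other groups did from each other, and the log2 fold change in UF1hypo of 0.61 ± 0.22 was not called (adjusted p = 0.114). CASP4 (chr11:104942866-104969366, minus strand), a sensor of cytosolic lipopolysaccharide, had a TPM of 8.83 and 7.71 in HCT116 and 33.7 and 31.5 in UF1hypo with shScr, and of 6.86 and 4.39 in HCT116 and 44.9 and 64.4 in UF1hypo with shUHRF1. The hairpin libraries lay below the controls in HCT116 and above them in UF1hypo, with log2 fold changes of −0.51 ± 0.25 (adjusted p = 0.857) and 0.71 ± 0.25 (adjusted p = 0.105), neither of them called. CASP1 (chr11:105025443-105035250, minus strand), the caspase of the canonical inflammasome, was listed at 0 in 6 libraries and had a TPM of 0.0426 and 0.521 in UF1hypo shUHRF1, too low for the filter. On chromosome 11 CASP5 lies 24.9 kb after CASP4 and 2.3 kb before CASP1, and CARD16 6.1 kb after CASP1. CASP5 was listed at 0 in all 8 libraries and CARD16 in 7 of them, with 0.132 in UF1hypo shUHRF1 replicate 2. Since CARD16 closely resembles a part of CASP1, and CASP5 resembles CASP4, low values of these genes are uncertain.

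Whether the hairpin acted differently in both lines was tested directly. It was called for 3 members, XAF1, ZBP1 and RIPK3, of the 9 that passed the filter over all 8 libraries, where 5.1% of 13778 genes tested were called. ZBP1 and RIPK3 were above a TPM of 1 in UF1hypo shUHRF1 alone, so their passing already required a difference. For these 3 members the HCT116 libraries added no spread. The test repeated the UF1hypo comparison for them and is not separate support. As all 3 were listed at 0 in every HCT116 library, the differences equalled the UF1hypo effects, at 4.44 ± 0.27 (limma, adjusted p = 0.00014), 2.12 ± 0.26 (adjusted p = 0.00346) and 1.66 ± 0.27 (adjusted p = 0.0124). XAF1 and ZBP1 kept their calls under each of 18 alternatives. The RIPK3 call was lost when any library of HCT116 shScr, HCT116 shUHRF1 or UF1hypo shScr was left out, with adjusted p between 0.0603 and 0.0807 at a log2 value of 1.66. It was also lost with FPKM in place of TPM (0.94) and with quantile normalization (1.33, adjusted p = 0.0556), so that 8 of 18 alternatives ended it. CASP4 differed by 1.21 ± 0.35 (adjusted p = 0.101) and TNFSF10 by 1.13 ± 0.39 (adjusted p = 0.155). Without UF1hypo shUHRF1 replicate 1 both were called, at 1.47 (adjusted p = 0.036) and 1.42 (adjusted p = 0.043).

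**Figure D2:**
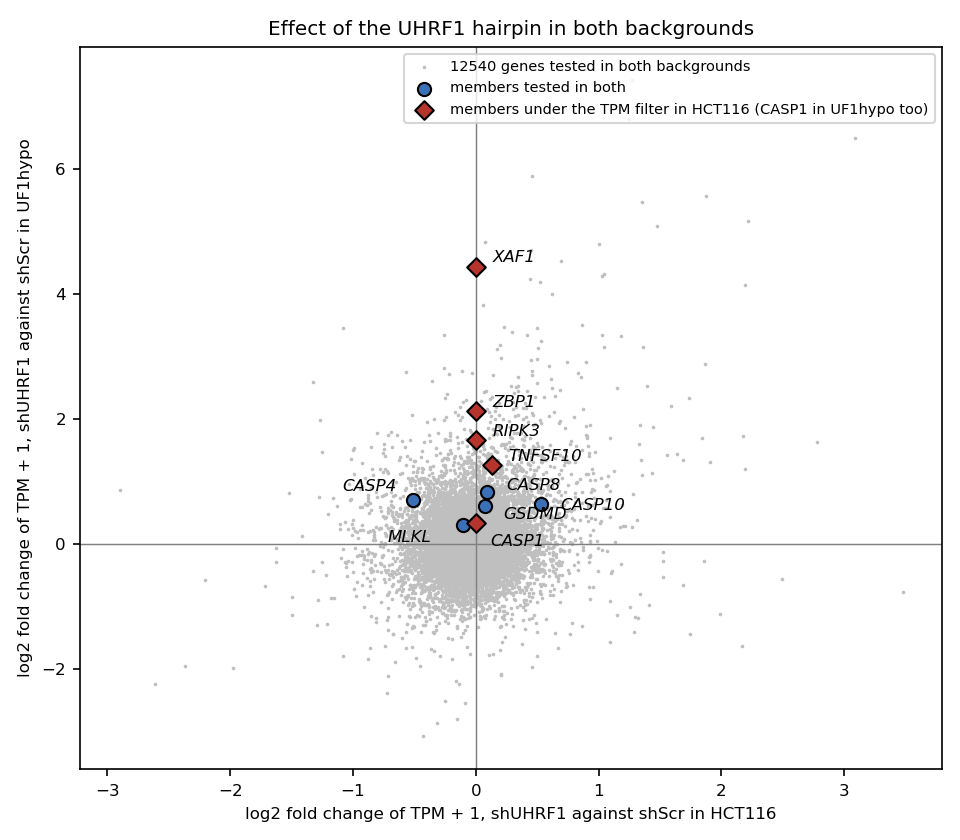
Log2 fold change of TPM + 1 with the UHRF1 hairpin in UF1hypo (vertical) against that in HCT116 (horizontal) for 12540 genes tested in both lines (grey) and the 10 members (named). XAF1, ZBP1 and RIPK3 lie on the vertical line at 0, since HCT116 libraries list them at 0, and CASP4 lies left of it at −0.51.

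The lines were also compared without knockdown, a comparison that shares its shScr libraries with those above. XAF1 and CASP4 were higher in UF1hypo shScr than in HCT116 shScr. They were the 2 members called of 6 that passed the filter, where 3.54% of 12853 genes tested were called. XAF1 passed only through UF1hypo shScr, the group in which it was high, so its passing already required a difference. XAF1, at 8.27 and 7.37 TPM against 0 in both HCT116 shScr libraries, differed by 3.14 ± 0.19 on the log2 scale (limma, adjusted p = 5.89e-05) and kept its call under each of 15 alternatives, between 2.17 and 6.31. CASP4 differed by 1.86 ± 0.25 (adjusted p = 0.00394), 3.94-fold in mean TPM, and by 1.77 without HCT116 shScr replicate 2 (adjusted p = 0.0535), where it was not called. CASP10 lay lower in both UF1hypo shScr libraries, with a log2 fold change of −0.76 ± 0.31 (adjusted p = 0.247) that was not called. CASP8, GSDMD and MLKL differed by 0.03 to 0.22 and were not called.

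The 2 libraries of UF1hypo shUHRF1 differed from each other with the GC content of the transcript. Across 13778 genes, which are not independent, Spearman's rho between GC content and replicate 2 minus replicate 1 was −0.814. It was computed for this group only, so the trend is not shown to be particular to it. The replicate differences of UF1hypo shScr correlated with those of UF1hypo shUHRF1 at −0.401. The members with GC contents of 40.2% to 49.5%, other than XAF1, were higher in replicate 2, by 0.29 for MLKL up to 0.91 for CASP10 on the log2 scale. GSDMD, with the highest GC content of 64.0%, was lower in replicate 2 by −0.73. XAF1, ZBP1 and RIPK3 differed by −0.05, −0.13 and −0.29, less than their knockdown effects in UF1hypo. TNFSF10, the other member called there, differed by 0.58 in UF1hypo shUHRF1 and by −0.54 in UF1hypo shScr, against a knockdown effect of 1.26. With the GC and length correction, the same 4 members were called in UF1hypo, and CASP4 and TNFSF10 also had a called difference of effects, of 1.25 (adjusted p = 0.00937) and 1.26 (adjusted p = 0.0301).

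**Figure D3:**
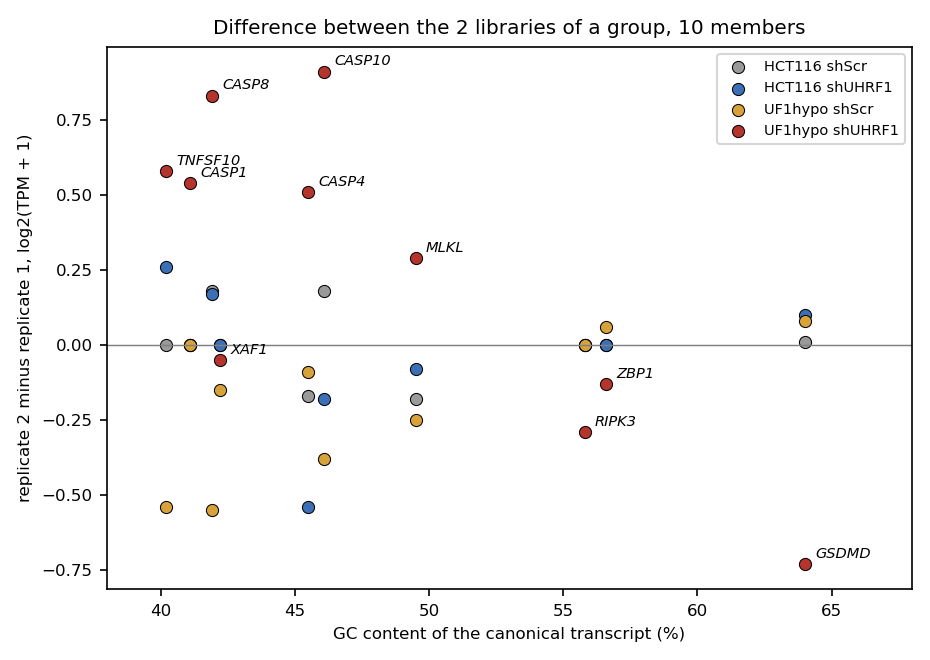
Replicate 2 minus replicate 1 in log2(TPM + 1) against the GC content of the canonical transcript for the 10 members, coloured by group. In UF1hypo shUHRF1 (named points) CASP10 and CASP8 differ by 0.91 and 0.83 and GSDMD by −0.73, while XAF1 differs by −0.05.

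Other genes of these pathways were taken from 4 lists with 79 genes besides the members. In UF1hypo cells 9 of the 65 that passed the filter were called with the hairpin, all higher, which is 13.8% against 8.53% of all genes. The median log2 fold change of the 79 was 0.12 against 0.039. In HCT116, 0 of 58 were called. An unadjusted p under 0.05 in limma was found for 6 of the 58 and for 810 of all 12701 genes tested.

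Around TRAIL, 1 of 13 tested genes (7.69%) rose in UF1hypo, no more than the 8.53% called of all genes tested. This was CFLAR, the inhibitor of CASP8 activation and the neighbour of CASP10, at 20.7 and 16.2 TPM in UF1hypo shScr against 48.7 and 53.4 in UF1hypo shUHRF1 (log2 fold change 1.43 ± 0.21, adjusted p = 0.0031). The difference of its effects between the lines, 1.08 ± 0.29, was not called (adjusted p = 0.0833). The TRAIL receptors TNFRSF10A and TNFRSF10B were present throughout, at 32.0 to 49.9 and 126.3 to 157.9 TPM, and were not called. Neither were the adaptor FADD at −0.02 ± 0.17 (adjusted p = 0.961) nor XIAP, the target of XAF1, at −0.04 ± 0.34 (adjusted p = 0.951).

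Among 13 tested genes of necroptosis and the TNF receptor complex, 3 (23.1%) rose in UF1hypo, where 8.53% of all genes tested were called. TICAM1, the adaptor of Toll-like receptor 3 that can also engage RIPK3, rose by 1.13 ± 0.19 (adjusted p = 0.00623), TNFAIP3, a deubiquitinase, by 1.09 ± 0.21 (adjusted p = 0.00998), and RBCK1, a subunit of the linear ubiquitin ligase, by 1.05 ± 0.20 (adjusted p = 0.0119). These calls were not stable to leaving out a library. TICAM1 was lost without UF1hypo shScr replicate 1 and UF1hypo shUHRF1 replicate 1, TNFAIP3 without either UF1hypo shScr replicate, and RBCK1 without those and UF1hypo shUHRF1 replicate 1, with adjusted p up to 0.0667, 0.0873 and 0.0971. RIPK1, the partner of RIPK3, was at 23.7 and 23.6 TPM in UF1hypo shScr against 28.4 and 36.0 in UF1hypo shUHRF1, and 0.42 ± 0.18 was not called (adjusted p = 0.169).

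The pyroptosis and inflammasome list had 4 called genes of 16 tested (25.0%) in UF1hypo, all higher, where 8.53% of all genes tested were called. NLRP1, an inflammasome sensor, was at 3.89 and 4.75 TPM in UF1hypo shScr against 53.3 and 39.1 in UF1hypo shUHRF1, a log2 fold change of 3.14 ± 0.26 (adjusted p = 0.000152). The guanylate-binding proteins GBP1, GBP4 and GBP3 rose by 2.11 ± 0.19 (adjusted p = 0.000258), 1.50 ± 0.24 (adjusted p = 0.0043) and 1.18 ± 0.19 (adjusted p = 0.00496), and GBP3 was not called without UF1hypo shScr replicate 1 (adjusted p = 0.0568). Their levels in UF1hypo shUHRF1 stayed between 1.50 and 4.72 TPM. GBP1 and GBP4, 2 of the 9 called pathway genes, passed the filter only through UF1hypo shUHRF1, where they were high, with a TPM of at most 0.286 and 0.109 in UF1hypo shScr. The adaptor PYCARD, at 0.181 and 0.254 TPM and then 1.88 and 1.90, missed the threshold at 1.25 ± 0.36 (adjusted p = 0.0538), and GSDME, another gasdermin, was not called at −0.29 ± 0.31 (adjusted p = 0.579). Between the lines without knockdown, IL18, a cytokine that CASP1 and CASP4 can process, was at 306.9 and 276.0 TPM in UF1hypo shScr and 78.4 and 78.9 in HCT116 shScr (1.87 ± 0.34, adjusted p = 0.0158), and GBP2, which passed the filter only through UF1hypo shScr, differed by 1.07 ± 0.25 (adjusted p = 0.0487). Leaving out any of the 4 libraries ended both calls, with adjusted p between 0.0945 and 0.293.

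Of 23 tested genes of the IAP and mitochondrial apoptosis list, 1 (4.35%) rose in UF1hypo, fewer than the 8.53% called of all genes tested. BAK1, a pore former of the outer mitochondrial membrane, was at 26.2 and 25.3 TPM in UF1hypo shScr against 83.9 and 67.6 in UF1hypo shUHRF1 (1.51 ± 0.18, adjusted p = 0.00132). The calls of BAK1, CFLAR, NLRP1, GBP1 and GBP4 in UF1hypo held without each of the 4 UF1hypo libraries in turn. Of 11 interferon signalling genes, listed because several members are interferon-inducible, 3 (27.3%) rose in UF1hypo. They were IRF7 by 1.84 ± 0.23 (adjusted p = 0.00148), IRF9 by 1.73 ± 0.18 (adjusted p = 0.000544) and STAT2 by 1.18 ± 0.15 (adjusted p = 0.00138). Between the lines without knockdown, IRF7, IRF9 and STAT2 were called higher in UF1hypo shScr, by 3.08, 2.78 and 1.08, and STAT2 was not called without any 1 of the 4 libraries (adjusted p up to 0.0772).

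**Figure D4:**
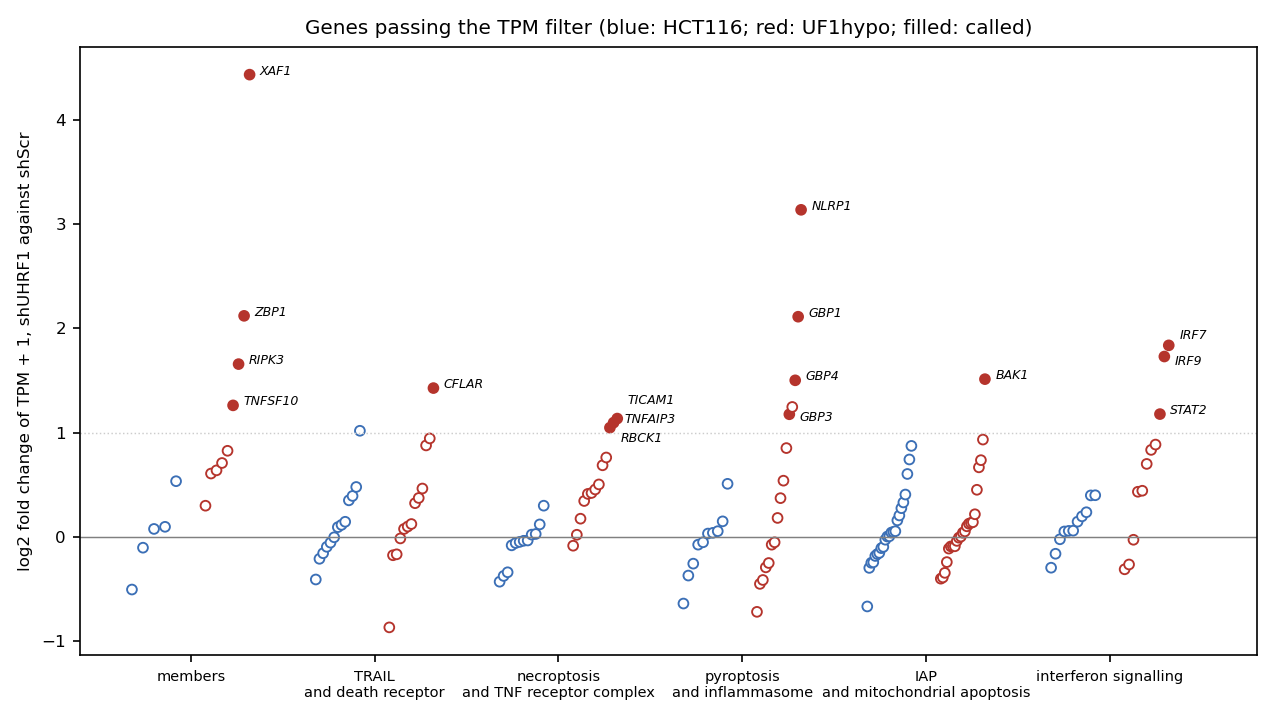
Log2 fold change of TPM + 1 with the UHRF1 hairpin for the members and 5 gene lists in HCT116 (blue) and UF1hypo (red), genes passing the TPM filter. Filled points are called and named, and all of them are in UF1hypo, with XAF1 at 4.44 and NLRP1 at 3.14 the highest.

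The genes nearest to each called member were taken by the root mean square difference of centred log2(TPM + 1) over the 8 libraries, among 13777 genes. XAF1 was nearest to MX2 (0.318), BST2 (0.453) and IFIT3 (0.50), which are interferon-stimulated genes. MX2 was listed at 0 in all HCT116 libraries, as XAF1 was, and in UF1hypo had a TPM of 5.63 and 6.56 with shScr against 125 and 103 with shUHRF1. The genes nearest to CASP4 included SERPING1 (0.219) and PARP14 (0.273), which were also higher in UF1hypo shScr than in HCT116 shScr. RIPK3 was nearest to PRR29 (0.016), EFS (0.027) and C11orf21 (0.028), ZBP1 to ADGRE1 (0.067), ZSCAN5B (0.076) and PRSS50 (0.090), and TNFSF10 to KRT10 (0.090), ADGRF4 (0.154) and ZBTB32 (0.168). The neighbours of RIPK3 and ZBP1 were at or near 0 in all groups but UF1hypo shUHRF1, which many low genes share.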

How the data were processed

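RNA-seq of polyA RNA was analysed from 8 libraries in 4 groups of 2. The authors used Fastp for trimming, HISAT2 2.0.4 for alignment to GRCh38 and StringTie 2.1.4 for gene quantification, versions as in the submitters' processing notes. As deposited, coverage is mean signal per base without scaling, FPKM is normalized by the authors for length and depth, and TPM for length and to a fixed total. The tables used here hold no read counts, so the DESeq2 test of the authors was not repeated and counting error is unknown.

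Protein-coding genes (GENCODE) with TPM above 1 in at least 1 library of a contrast were tested with limma 3.58.1 (R 4.3.3) on log2(TPM + 1), with 4 group terms in 1 fit of all libraries (4 residual degrees of freedom, variance trend) and Benjamini-Hochberg adjustment. For a single gene, 2 libraries against 2 allow no exact two-sided permutation p below 0.333. Errors are SD for levels and SE for fold changes. The fit was run on simulated data with normal spread, in which only genes with a mean log2(TPM + 1) above 1 were changed. It therefore says nothing of low members such as RIPK3, ZBP1 and TNFSF10. Members and gene lists were chosen with earlier results of these data known. The genes named are the members, UHRF1, 10 direct partners, called list genes and the 3 nearest genes of each called member; CARD16, TNFRSF10C, the overlapping genes and the cell type markers were named after their values were seen. Some genes of this rule are not reported here. Alternatives were 11 other settings and each library left out. Other steps used Python 3.11.15, numpy 2.4.6 and pandas 2.3.3.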

Additional observations from a re-analysis of the deposited data

Results flagged for a closer look

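The effect of the UHRF1 hairpin differed between UF1hypo and HCT116 for 12 genes by a direct test of the difference (limma, adjusted over all genes tested), all with the larger effect in UF1hypo. They were 3 of 9 tested members, 7 of 66 tested pathway genes and 2 of 11 interferon signalling genes, where 5.1% of 13778 genes were called. RIPK3, ZBP1, GBP1 and GBP4 were above a TPM of 1 in UF1hypo shUHRF1 alone, so their passing the filter already required a difference. These genes and XAF1 were listed at 0 in every HCT116 library, so their differences repeat the UF1hypo effects. Among the members the difference on the log2(TPM + 1) scale was 4.44 for XAF1 (adjusted p = 0.00014), 2.12 for ZBP1 (adjusted p = 0.00346) and 1.66 for RIPK3 (adjusted p = 0.0124). In the pyroptosis list it was 2.63 for NLRP1 (adjusted p = 0.00624), 2.11 for GBP1 (adjusted p = 0.00409), 1.50 for GBP4 (adjusted p = 0.0406) and 1.23 for GBP3 (adjusted p = 0.0382). In the other lists it was 1.48 for RBCK1 (adjusted p = 0.0246), 1.2 for TICAM1 (adjusted p = 0.0441), 1.18 for BAK1 (adjusted p = 0.0402), 1.69 for IRF7 (adjusted p = 0.0233) and 1.33 for IRF9 (adjusted p = 0.0222). XAF1, ZBP1, NLRP1 and GBP1 kept this call with each of the 8 libraries left out in turn. RIPK3, BAK1, GBP3, GBP4, RBCK1, IRF7, IRF9 and TICAM1 lost it without any of the 6 libraries outside UF1hypo shUHRF1, with adjusted p up to 0.0807, 0.196, 0.178, 0.169, 0.141, 0.129, 0.14 and 0.215, and TICAM1 also lost it without UF1hypo shUHRF1 replicate 1.

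The CASP4 libraries were ordered in opposite ways, with both hairpin libraries below both controls in HCT116 and above both in UF1hypo. Neither change was called (limma, adjusted p = 0.857 and 0.105). The CASP4 difference was 1.21 (adjusted p = 0.101) and did not pass the test. In UF1hypo both hairpin libraries lay above both controls for 30.6% of 13617 genes tested. TNFRSF10A, RIPK1, RBCK1 and CD68, for example, were ordered in both lines as CASP4 was. The share of all genes ordered this way was not counted.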

How the results depend on the processing

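The number of members called with the hairpin in HCT116 was 0 under all alternatives run. In UF1hypo it was 4 and fell to 2 with FPKM in place of TPM, where RIPK3 and TNFSF10 moved to 0.94 and 0.78 on the log2 scale. FPKM values also had 1 added and lay below TPM, for RIPK3 in UF1hypo shUHRF1 at 1.03 and 0.82 against 2.48 and 1.85. TNFSF10 was also not called with a pseudocount of 0.1, the 4 libraries alone, quantile normalization or library weights. For the difference between the lines the count of 3 members rose to 5 with the GC content and length correction, and RIPK3 lost its call with FPKM (0.94) and with quantile normalization (1.33). The 79 other pathway genes gave 0 calls in HCT116 but 1, TNFRSF10C, with the 4 libraries alone, the GC correction and library weights. In UF1hypo their 9 calls became 4 with the 4 libraries alone and 5 with FPKM or library weights. For the difference their 7 calls became 3 with a pseudocount of 0.1, all genes in the tables, quantile normalization, the replicate block or library weights, and 4 with median-ratio scaling. Between the lines without knockdown their 2 calls became 5 with a pseudocount of 0.1, 4 with the GC correction, and 1 with all genes, FPKM, quantile normalization or the replicate block. The cause of these shifts was not tested.

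Leaving out 1 library at a time, members called ranged from 3 to 6 in UF1hypo, from 2 to 5 for the difference and from 1 to 2 between the lines, and other pathway genes from 5 to 15, from 2 to 16 and from 0 to 0. The values of 15 and 16 came without UF1hypo shUHRF1 replicate 2, which in UF1hypo raised the calls over all genes from 1162 to 2258. A fit with 1 library left in a group assumes that it varies like the other groups. The sign turned for 3 uncalled members. CASP10, with a difference between the lines of 0.10, gave −0.22 with quantile normalization and −0.35 to 0.56 with a library left out. CASP8 between the lines, at 0.03, gave −0.25 to 0.31 with a library left out, and GSDMD, at 0.13, gave −0.11 with the GC correction. Quantile normalization moved the median of all genes by −0.103 in UF1hypo and −0.137 for the difference, and its calls over all genes in UF1hypo were 681 higher and 289 lower, against 1007 and 155.

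Replicate numbers did not pair the libraries: replicate differences of the groups correlated between −0.401 and 0.055. With the replicate block, members called were 0, 4, 3 and 2 in HCT116, UF1hypo, the difference and between the lines, as without it, and calls over all genes in UF1hypo were 1111. As UF1hypo shScr and UF1hypo shUHRF1 gave the −0.401, their numbers were also crossed, an alternative chosen after seeing the data, with 4 members, 10 other pathway genes and 1206 genes called.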
